A study of Mus musculus with 12 samples.

Results

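Genes of cholesterol synthesis (Hmgcs1, Idi1, Fdps, Fdft1, Sqle, Cyp51 and the regulator Insig1) and the fatty-acid-binding protein gene Fabp5 were followed in T cells that had met a strong or a weak agonist peptide in mice. A probe set counted as belonging to one of these 8 genes when that gene was its only symbol in the annotation of the Affymetrix mouse array. The annotation gave 18 of the 22690 probe sets to 7 of the 8 genes, and Insig1 was not analysed here. Of the 18 probe sets, 16 passed the filter on low signal, a mean over the 12 arrays of at least 4.47 log2. The exceptions were Fdps 1438150_at, with a mean of 2.33 log2, and Cyp51 1422534_at, with a mean of 3.50 log2.

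All samples held 5CC7 T cells, which carry a transgenic receptor that recognises a cytochrome c peptide. The cells had been transferred into B10.A recipients, per the labels, and both cells and peptide were given through the tail vein. The 12 arrays form 4 groups of 3, taken from mice given 2 µg of MCC, 0.2 µg of MCC, 2 µg of 102S or 0.2 µg of 102S. MCC is the strong agonist of this receptor and 102S the weak one, per the series text. Pooled lymph nodes were taken 48 h after the injection and the 5CC7 cells were isolated by flow cytometric sorting. No unstimulated 5CC7 cells were analysed here, so each comparison sets one stimulated group against another. The labels do not say that replicates came from separate animals, and a p-value here reflects nothing but the variation among these arrays, which may be technical in part. In such bulk RNA, fewer cells of a type and less RNA per cell cannot be told apart.

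Cells build cholesterol from acetyl-CoA through mevalonate, isoprenoid diphosphates and squalene. When sterols in the endoplasmic reticulum fall, the transcription factor SREBP2 is released and raises the transcription of most genes of this pathway, and Insig proteins hold it back when sterols are plentiful. T cells that leave quiescence need new membrane and are known to use this programme. Fabp5 encodes a small cytosolic protein that carries fatty acids between membranes, organelles and nuclear receptors, and it is expressed in activated T cells, macrophages, endothelial cells and keratinocytes, among others.

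Fabp5 was higher with MCC than with 102S at both doses, Sqle was lowest with 2 µg of MCC, and the other 5 measured genes were not called in any of the 6 comparisons. Differences were tested with limma on log2 values, with Benjamini-Hochberg adjustment over the 13576 probe sets that passed the filter and a threshold of 0.05. Where a gene had more than 1 probe set, its brightest represented it. At 2 µg, MCC against 102S, 1 of the 7 measured genes was higher (Fabp5) and 1 was lower (Sqle), while 4.44% of the 7956 tested genes were called higher and 6.83% lower. At 0.2 µg, MCC against 102S, 1 of 7 was higher (Fabp5), while 9.07% of all genes were called higher and 7.01% lower. For 2 µg against 0.2 µg of MCC, 2 of 7 were lower (Fabp5 and Sqle), while 1.21% of all genes were called lower and 0.716% higher. For 2 µg against 0.2 µg of 102S, limma called 0 of 7, while 3.82% of all genes were called in either direction. There 2 of 7 (Fabp5 and Sqle) had an unadjusted limma p below 0.05. The share of all genes at that looser cut was not counted, so such counts, here and below, stand without a background. In the interaction of peptide and dose, 1 of 7 was called (Fabp5, negative), while 0.842% of all genes were called negative. For 0.2 µg of MCC against 2 µg of 102S, 1 of 7 was higher (Fabp5), while 1.85% of all genes were called higher. These comparisons share arrays and one estimate of the spread, so they are not independent of each other.

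**Figure D1:**
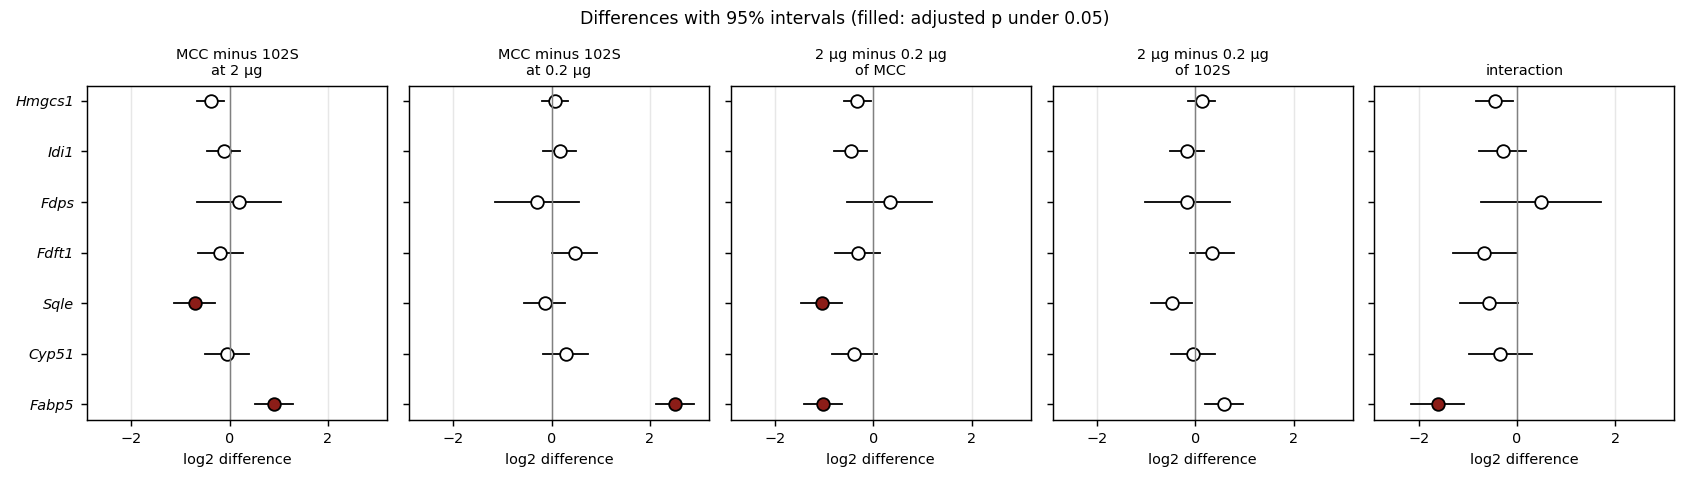
Log2 differences of the 7 measured genes in 5 comparisons, in pathway order with Fabp5 last. Points are limma estimates, bars are 95% intervals, and filled points have a Benjamini-Hochberg adjusted p under 0.05. Fabp5 is to the right of 0 in both peptide comparisons and to the left for the dose of MCC and the interaction, and Sqle is filled at 2 µg and for the dose of MCC.

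Arrays of one group correlated with Pearson r between 0.977 and 0.995 across probe sets, and 2 features of the samples cut across the groups. Xist, the RNA of the inactive X chromosome, lay between 10.35 and 11.03 log2 in the replicate 1 array of each group and between 2.27 and 2.78 log2 in the 8 others. The sex-linked Eif2s3y ran the other way, at 3.31 to 4.26 log2 in the replicate 1 arrays and 8.75 to 9.37 log2 in the 8 others. Replicate 1 thus differed from the others in sex-linked RNA, and the spread within a group was not technical alone. RNA integrity was read from the β-actin control probe sets as their 3′ signal minus their 5′ signal, a value that is larger in degraded or partly copied RNA. It averaged 0.63 ± 0.12 log2 at the higher and 1.62 ± 0.81 log2 at the lower dose of MCC (SD, n = 3). With 102S the averages were 1.24 ± 0.41 log2 at 2 µg and 1.33 ± 0.88 log2 at 0.2 µg (SD, n = 3), and the value was lowest in replicate 1 of each group. Of all 13576 tested probe sets, 41.8% had a called slope on this control. All 9 T cell genes with a probe set (among them Cd3d, Cd3e, Cd4 and Thy1) lay above the filter, and their mean level was 10.06 to 10.63 log2 over the arrays. Some markers of other cell types passed the filter too, as given below, so passing it does not identify the cells.

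Fabp5 was the gene of the set that differed between the peptides at both doses. With 2 µg of MCC its probe set 1416021_a_at read 7.94, 7.97 and 7.54 log2, and with 0.2 µg of MCC it read 8.48, 9.04 and 9.00 log2. With 2 µg of 102S it read 6.76, 6.92 and 7.06 log2, and with 0.2 µg of 102S it read 6.46, 6.24 and 6.28 log2. Thus all 6 MCC arrays lay above all 6 102S arrays, and no 2 groups overlapped. The order of the levels was 0.2 µg of MCC, 2 µg of MCC, 2 µg of 102S and 0.2 µg of 102S. In the tests below each neighbouring pair but the last was called for this probe set. The call between the doses of MCC was lost in some alternatives.

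At 2 µg, Fabp5 was 1.87-fold higher with MCC than with 102S, a difference of 0.90 ± 0.18 log2 (SE; limma Benjamini-Hochberg adjusted p = 0.00674). At 0.2 µg it was 5.72-fold higher with MCC, by 2.52 ± 0.18 log2 (adjusted p = 2.00e-06, limma). Even 0.2 µg of MCC gave a 3.81-fold higher level than 2 µg of 102S, by 1.93 ± 0.18 log2 (limma adjusted p = 0.000252). All 3 calls held in each of 11 alternatives and each of 12 omissions of a single array, with adjusted p between 0.000469 and 0.0474 at 2 µg, between 9.24e-09 and 0.000558 at 0.2 µg, and between 3.58e-06 and 0.0109 for low-dose MCC against high-dose 102S. In replicates 2 and 3 alone, which have low Xist, the Fabp5 differences were 0.76 log2 at 2 µg and 2.76 log2 at 0.2 µg.

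The estimated dose differences of Fabp5 had opposite signs for the 2 peptides, and that of 102S was not called unless the β-actin control entered the fit. With MCC, 2 µg gave a 2.04-fold lower level than 0.2 µg, a difference of -1.03 ± 0.18 log2 (SE; limma Benjamini-Hochberg adjusted p = 0.0129). With 102S, 2 µg gave a level 0.59 ± 0.18 log2 above that of 0.2 µg, with groups that did not overlap but an adjusted p of 0.117 in limma. The peptide difference at 2 µg was smaller than that at 0.2 µg, with an interaction of -1.61 ± 0.25 log2 (limma adjusted p = 0.00878) and a 95% interval from -2.15 to -1.07 log2. The β-actin control differed between the 2 MCC groups, as given above, and with it as a covariate the dose difference of MCC was -0.89 log2 (adjusted p = 0.0124, limma) and that of 102S was 0.60 log2 (adjusted p = 0.0184, limma). The call for the dose of MCC was lost when replicate 2 of 0.2 µg MCC (adjusted p = 0.0620) or replicate 3 of 0.2 µg MCC (adjusted p = 0.0854) was left out, and with only the 6 MCC arrays in the limma fit (adjusted p = 0.0545). Its difference was -0.93 and -0.95 log2 in those 2 omissions and lay between -1.21 and -0.89 log2 over all 12. The call was also lost without replicate 3 of both 0.2 µg groups, where the β-actin difference was highest. Over all alternatives and omissions of this comparison, adjusted p lay between 0.00461 and 0.0854.

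The second Fabp5 probe set, 1416022_at, gave the same order of groups. It read 6.71, 6.68 and 6.02 log2 with 2 µg of MCC and 7.10, 7.23 and 7.40 log2 with 0.2 µg of MCC, against 5.52, 5.49 and 5.99 log2 with 2 µg of 102S and 5.25, 5.23 and 5.21 log2 with 0.2 µg of 102S. MCC was higher by 0.81 ± 0.20 log2 at 2 µg (limma Benjamini-Hochberg adjusted p = 0.0241) and by 2.02 ± 0.20 log2 at 0.2 µg (adjusted p = 2.91e-05). Its dose difference for MCC, -0.78 ± 0.20 log2, and its interaction, -1.21 ± 0.28 log2, had adjusted p of 0.0828 and 0.0901 in limma and were not called. Neither probe set had a called slope on the β-actin control (0.14 ± 0.10 and 0.10 ± 0.13 log2 per log2, adjusted p 0.288 and 0.564 in limma).

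**Figure D2:**
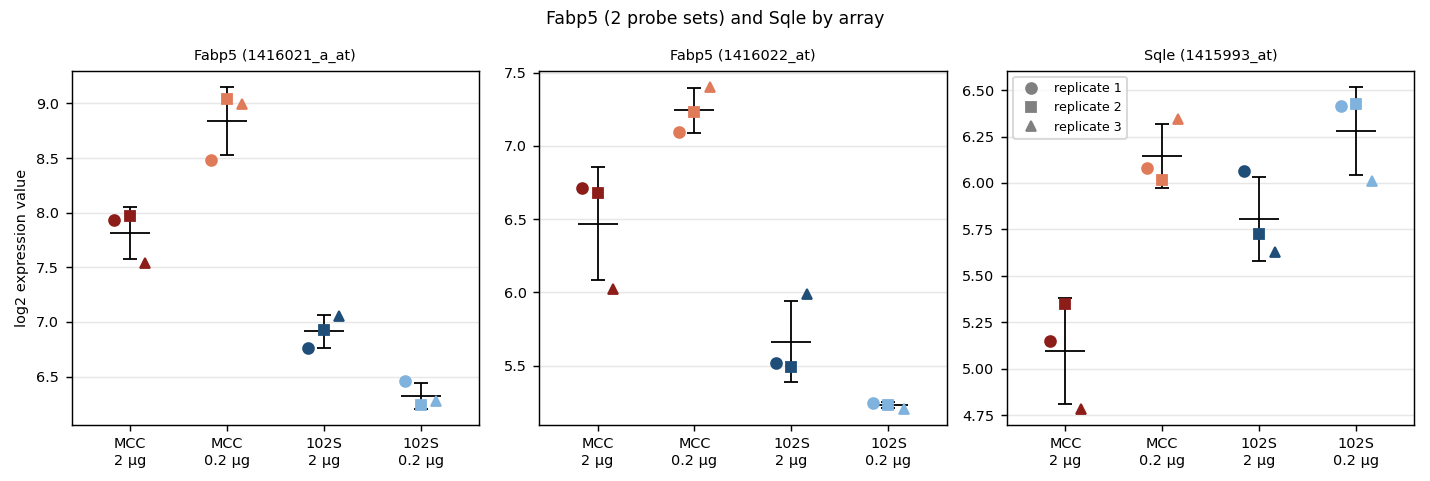
Log2 expression value of Fabp5 (2 probe sets) and Sqle in each array, by peptide and dose. Symbols mark the replicate number, horizontal lines the group mean and bars 1 SD (n = 3 arrays). Fabp5 is highest with 0.2 µg of MCC in both panels, and Sqle is lowest with 2 µg of MCC.

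Markers of other cell types that express Fabp5 were read on the same arrays. Of the 7 macrophage and dendritic cell genes, 2 (Csf1r and Lyz2) lay above the filter, and Cd68, Adgre1, Itgam, Itgax and Cd14 lay below it. Their mean level was between 3.74 and 4.15 log2 with 2 µg of MCC, 3.79 and 4.27 log2 with 0.2 µg of MCC, 3.76 and 4.04 log2 with 2 µg of 102S, and 3.80 and 4.17 log2 with 0.2 µg of 102S, ranges that overlap. The endothelial and adipocyte genes Cdh5, Adipoq and Cidec and the keratin genes Krt14 and Krt1 were below the filter, while Pecam1, Kdr, Krt5 and Krt10 were above it. The endothelial and adipocyte genes averaged 4.44 to 4.58 log2 with 2 µg of MCC and 4.42 to 4.54 log2 with 0.2 µg of MCC, against 4.42 to 4.49 log2 with 2 µg of 102S and 4.24 to 4.52 log2 with 0.2 µg of 102S. The 4 keratin genes averaged 4.54 to 4.57 log2 with 2 µg of MCC and 4.59 to 5.03 log2 with 0.2 µg of MCC, against 4.60 to 4.69 log2 with 2 µg of 102S and 4.64 to 5.00 log2 with 0.2 µg of 102S.

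Of 6 genes of CD8 T cells and NK cells with a probe set, 5 lay above the filter. Between the peptides 2 of 5 were lower with MCC at each dose, while 6.83% of all genes were called lower at 2 µg and 7.01% at 0.2 µg. Between the doses of MCC 1 of 5 was lower at 2 µg, while 1.21% of all genes were called lower. Between the doses of 102S 1 of 5 was lower at 2 µg. Of all 13576 tested probe sets, 69 were called lower there and 360 higher. The share of all genes called there in either direction was 3.82%. The mean level of the 6 CD8 T and NK cell genes ranged over 4.95 to 5.11 log2 with 2 µg of MCC and 5.30 to 5.88 log2 with 0.2 µg of MCC, against 5.80 to 5.83 log2 with 2 µg of 102S and 6.26 to 6.44 log2 with 0.2 µg of 102S. The NK-receptor chain gene Klrd1 averaged 4.65 log2 with 2 µg of MCC and 6.27 log2 with 0.2 µg of MCC, against 7.33 log2 with 2 µg of 102S and 8.63 log2 with 0.2 µg of 102S, while Ncr1 was below the filter. Of the 5 B cell genes with a probe set, Cd79b and Ighm lay above the filter and Cd79a, Ms4a1 and Pax5 below it, and their mean level spanned 5.60 to 5.70 log2 with 2 µg of MCC, 5.61 to 5.78 log2 with 0.2 µg of MCC, 5.50 to 5.63 log2 with 2 µg of 102S and 5.57 to 6.11 log2 with 0.2 µg of 102S. Ighm was called lower with MCC at 0.2 µg and Cd79b higher, while 7.01% of all genes were called lower and 9.07% higher. Ighm was also called lower at 2 µg than at 0.2 µg of 102S, lower in low-dose MCC against high-dose 102S, and positive in the interaction. Of all 13576 tested probe sets, 69, 124 and 10 were called in those directions. The part of these genes in the Fabp5 and Sqle differences was not tested.

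Fabp5 belongs to a family of intracellular lipid-binding proteins, and the other members were at the low end of the array. Of 13 relatives, 11 had a probe set of their own, among them the adipocyte and macrophage form Fabp4 and the retinoic-acid-binding Crabp2. All 11 lay below the filter, so 0 of 11 were tested. By Pearson correlation over the 12 arrays among 7949 other genes, the patterns most like that of Fabp5 were those of Syce2 (r = 0.972), Nucb2 (r = 0.962), Cst7 (r = 0.961), Tnfrsf4 (r = 0.960) and Ifitm2 (r = 0.959). Tnfrsf4, the costimulatory receptor OX40, averaged 8.89 log2 with 2 µg of MCC and 9.44 log2 with 0.2 µg of MCC, against 7.16 log2 with 2 µg of 102S and 6.62 log2 with 0.2 µg of 102S. Cst7, the cystatin F gene, averaged 8.71 and 9.14 log2 with 2 µg and 0.2 µg of MCC, against 7.89 and 7.69 log2 with 2 µg and 0.2 µg of 102S. These correlations are descriptions over arrays that share peptide, dose and RNA quality.

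The sterol genes are shown next in pathway order, beginning with the promoters of those for which a sequence was at hand. RefSeq promoter tables (build GRCm38.p6, 250 bases before to 50 after the start) held Hmgcs1, Idi1 and Cyp51 among the measured members, and a 120-base stretch of each is printed because members of this pathway share SREBP2 control. Each stretch was placed, within the 250 bases before the start, where it holds most of the matches, which is bases -237 to -118 in Hmgcs1 and -120 to -1 in Idi1 and Cyp51. Capitals mark CCAAT on either strand and matches to the sterol regulatory element TCACNCCAC on either strand with at most 1 mismatch, and each window is given 5′ to 3′ on the gene's strand.
Hmgcs1, chr13:119690114-119690233 (+): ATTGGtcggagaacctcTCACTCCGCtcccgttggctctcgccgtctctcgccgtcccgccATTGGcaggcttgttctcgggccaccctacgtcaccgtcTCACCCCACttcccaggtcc
Idi1, chr13:8885486-8885605 (+): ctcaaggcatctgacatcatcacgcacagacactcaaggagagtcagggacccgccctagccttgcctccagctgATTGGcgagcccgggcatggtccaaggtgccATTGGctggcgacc
Cyp51, chr5:4104698-4104817 (−): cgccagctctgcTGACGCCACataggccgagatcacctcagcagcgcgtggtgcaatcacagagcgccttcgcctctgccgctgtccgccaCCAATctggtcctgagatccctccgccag

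Over the whole 300-base promoter, Hmgcs1 held 2 matches to TCACNCCAC within 1 mismatch, of which 1 was exact, and 4 CCAAT boxes. Idi1 held 0 matches to TCACNCCAC and 2 CCAAT boxes, and Cyp51 held 1 match within 1 mismatch and 1 CCAAT box. The Sp1 box GGGCGG on either strand occurred 3 times in Hmgcs1, 1 time in Idi1 and 1 time in Cyp51. Among 32851 promoters of the same length, of 27025 genes, 1.24% held TCACNCCAC exactly, 24.2% held it within 1 mismatch, 37.4% held CCAAT and 35.7% held GGGCGG, each on either strand. A match of letters describes the sequence only.

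Hmgcs1 encodes the cytosolic synthase that makes HMG-CoA, an early intermediate of the pathway. Its brightest probe set, 1433443_a_at, read 8.06, 8.08 and 7.98 log2 with 2 µg of MCC and 8.15, 8.45 and 8.50 log2 with 0.2 µg of MCC. With 102S it read 8.46, 8.38 and 8.44 log2 at 2 µg and 8.25, 8.16 and 8.47 log2 at 0.2 µg. The 3 arrays of 2 µg MCC were the lowest of the 12. At 2 µg the difference between MCC and 102S was -0.39 ± 0.13 log2 (SE; limma Benjamini-Hochberg adjusted p = 0.0729), and between the doses of MCC it was -0.32 ± 0.13 log2 (adjusted p = 0.210), neither of which passed the test. The 2 µg peptide difference passed it without replicate 1 of 0.2 µg MCC (adjusted p = 0.0461, limma), and its adjusted p over all alternatives lay between 0.0417 and 0.963. With the β-actin control as a covariate this difference was -0.28 log2 (adjusted p = 0.0536, limma).

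The other 3 probe sets of Hmgcs1 each had a called negative slope on the β-actin control. Probe set 1433446_at read 6.60, 6.13 and 5.98 log2 with 2 µg of MCC and 6.77, 5.39 and 4.98 log2 with 0.2 µg of MCC, against 6.87, 6.02 and 5.64 log2 with 2 µg of 102S and 6.67, 6.28 and 5.04 log2 with 0.2 µg of 102S. In each of the 4 groups it was lowest in the array with the highest β-actin difference, and its slope was -1.11 ± 0.11 log2 per log2 of that difference (SE; limma Benjamini-Hochberg adjusted p = 1.69e-06). The slopes of 1433444_at and 1433445_x_at were -0.50 ± 0.07 (adjusted p = 5.68e-05, limma) and -0.28 ± 0.07 (adjusted p = 0.00425), and that of 1433443_a_at was 0.17 ± 0.06 (adjusted p = 0.0453). The MCC minus 102S differences of the 3 probe sets at 2 µg ran from -0.21 to 0.06 log2, and none was called.

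Idi1 encodes the isomerase that balances the pair of 5-carbon isoprenoid diphosphates. Probe set 1451122_at read 6.41, 6.73 and 6.30 log2 with 2 µg of MCC and 6.75, 6.89 and 7.17 log2 with 0.2 µg of MCC, against 6.72, 6.49 and 6.59 log2 with 2 µg of 102S and 6.74, 6.72 and 6.84 log2 with 0.2 µg of 102S. The MCC groups did not overlap, 2 µg being the lower, with a difference of -0.46 ± 0.15 log2 (SE; limma Benjamini-Hochberg adjusted p = 0.166). The dimmer probe set 1423804_a_at gave -0.80 ± 0.22 log2 for the same comparison (adjusted p = 0.0994, limma), also without overlap. Neither passed the test, and the peptide differences of the first probe set were -0.12 ± 0.15 log2 at 2 µg and 0.17 ± 0.15 log2 at 0.2 µg.

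Fdps encodes farnesyl diphosphate synthase, which stands at the branch between sterols and protein prenylation. Its tested probe set read 6.50, 6.16 and 5.44 log2 with 2 µg of MCC and 6.32, 5.60 and 5.19 log2 with 0.2 µg of MCC, against 6.38, 5.79 and 5.36 log2 with 2 µg of 102S and 6.43, 6.31 and 5.25 log2 with 0.2 µg of 102S. Within each group the array with the highest β-actin difference was the lowest, and the slope on that difference was -0.81 ± 0.13 log2 per log2 (SE; limma Benjamini-Hochberg adjusted p = 0.000202). The 4 groups overlapped throughout, and differences between them had standard errors of 0.40 log2, so that the 95% interval for MCC against 102S at 2 µg ran from -0.67 to 1.05 log2.

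**Figure D3:**
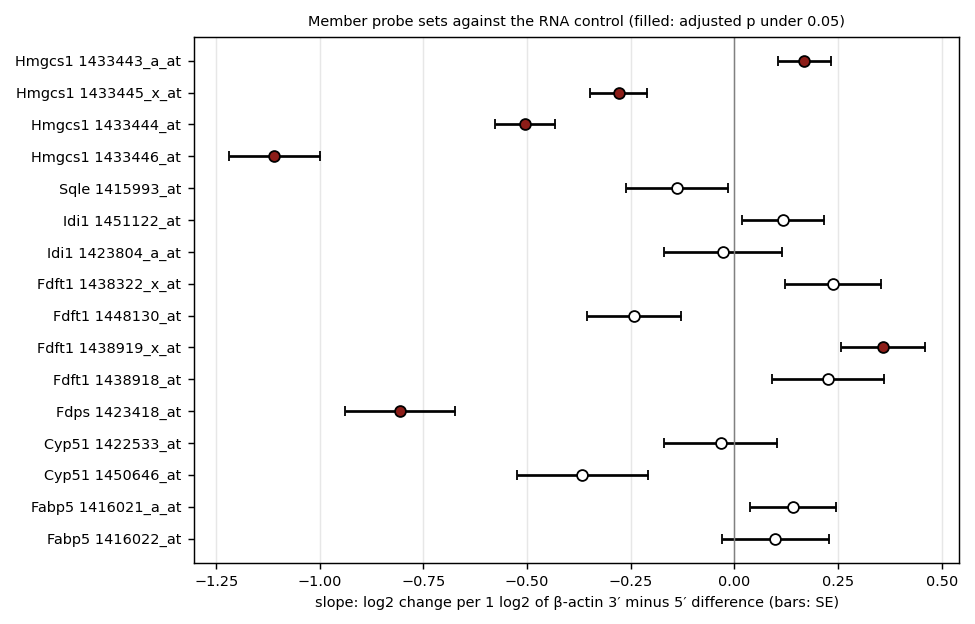
Slope of each tested member probe set on the 3′ minus 5′ signal of β-actin, in log2 per log2, within the 4 groups. Bars are standard errors and filled points have a Benjamini-Hochberg adjusted p under 0.05. The slopes of Hmgcs1 1433446_at (-1.11) and Fdps 1423418_at (-0.81) lie farthest from 0, and those of Sqle and Fabp5 are not filled.

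Of the 16 tested probe sets, 4 had a called negative slope on the control (3 of Hmgcs1 and Fdps 1423418_at) and 2 a called positive one (Hmgcs1 1433443_a_at and Fdft1 1438919_x_at), while 27.5% of all tested probe sets were called negative and 14.3% positive. Probe sets of one gene therefore did not share a direction for Hmgcs1.

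Fdft1 encodes squalene synthase, the first committed step toward sterols. Probe set 1438322_x_at read 7.24, 7.36 and 6.62 log2 with 2 µg of MCC and 6.99, 7.54 and 7.66 log2 with 0.2 µg of MCC, against 7.17, 7.28 and 7.34 log2 with 2 µg of 102S and 6.85, 6.88 and 7.04 log2 with 0.2 µg of 102S. The 2 highest of the 12 arrays were of 0.2 µg MCC, and the third array of that group lay among the 102S arrays of that dose. MCC exceeded 102S by 0.47 ± 0.21 log2 at 0.2 µg (SE; limma Benjamini-Hochberg adjusted p = 0.162), which did not pass the test. Without replicate 1 of 0.2 µg MCC the difference was 0.68 log2 (adjusted p = 0.0326, limma). The adjusted p of this comparison over all alternatives lay between 0.0326 and 0.811. The other 3 tested probe sets of Fdft1 differed by 0.11 to 0.23 log2 in this comparison, and none was called.

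Sqle encodes squalene epoxidase, the oxygen-requiring step after squalene and one of the slow steps of the pathway. Its only probe set read 5.15, 5.35 and 4.78 log2 with 2 µg of MCC and 6.08, 6.01 and 6.34 log2 with 0.2 µg of MCC. With 102S it read 6.06, 5.72 and 5.63 log2 at 2 µg and 6.41, 6.42 and 6.01 log2 at 0.2 µg. The 3 arrays of 2 µg MCC lay below the other 9. In order of the group means the levels were 6.28 ± 0.24 log2 with 0.2 µg of 102S, 6.15 ± 0.17 log2 with 0.2 µg of MCC, 5.81 ± 0.23 log2 with 2 µg of 102S and 5.09 ± 0.29 log2 with 2 µg of MCC (SD, n = 3).

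With MCC, 2 µg gave a 2.07-fold lower Sqle level than 0.2 µg, a difference of -1.05 ± 0.19 log2 (SE; limma Benjamini-Hochberg adjusted p = 0.0184). At 2 µg, MCC gave a 1.64-fold lower level than 102S, by -0.71 ± 0.19 log2 (adjusted p = 0.0357, limma). The other neighbours in the order were not told apart. MCC against 102S at 0.2 µg gave -0.14 ± 0.19 log2 (limma adjusted p = 0.702, 95% interval -0.56 to 0.28), whereas 0.2 µg of MCC exceeded 2 µg of 102S by 0.34 ± 0.19 log2 (adjusted p = 0.429). For 102S, 2 µg against 0.2 µg differed by -0.48 ± 0.19 log2 (limma adjusted p = 0.297), and the interaction was -0.57 ± 0.27 log2 (adjusted p = 0.584), so a larger dose effect of MCC than of 102S was not shown.

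Both Sqle calls were lost on leaving out some single arrays, although the difference kept its sign, between -0.84 and -0.56 log2 for the peptide at 2 µg and between -1.18 and -0.90 log2 for the dose of MCC over the 12 omissions. The 2 µg peptide call was lost without replicate 1 (adjusted p = 0.0718) or replicate 3 (0.119) of 2 µg MCC, without replicate 1 (0.141), 2 (0.0785) or 3 (0.0630) of 2 µg 102S, and without replicate 2 of 0.2 µg 102S (0.0507), all in limma with Benjamini-Hochberg adjustment. It was also lost in replicates 2 and 3 alone (-0.61 log2, adjusted p = 0.239, limma) and with no filter on low values (adjusted p = 0.0576). The dose call was lost without replicate 1 (adjusted p = 0.0529) or replicate 3 (0.0589) of 2 µg MCC, without replicate 3 of 0.2 µg MCC (0.105), with only the 6 MCC arrays (0.0713) and without replicate 3 of both 0.2 µg groups, where the β-actin difference was highest (0.0720), in the same limma test. Adjusted p over all alternatives lay between 0.00757 and 0.239 for the peptide and between 0.00507 and 0.105 for the dose. The slope of Sqle on the β-actin control was -0.14 ± 0.12 log2 per log2 (limma adjusted p = 0.388), and with that control as a covariate the differences were -0.80 log2 for the peptide at 2 µg (adjusted p = 0.00757) and -1.19 log2 for the dose of MCC (adjusted p = 0.00631).

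Cyp51 encodes lanosterol 14-alpha-demethylase, which acts after the sterol ring has closed. Probe set 1422533_at read 5.63, 5.97 and 5.25 log2 with 2 µg of MCC and 6.11, 5.62 and 6.29 log2 with 0.2 µg of MCC, against 5.76, 5.70 and 5.56 log2 with 2 µg of 102S and 5.65, 5.83 and 5.67 log2 with 0.2 µg of 102S. The 4 groups overlapped, and the MCC arrays spread more widely than the 102S arrays (SD 0.36 and 0.35 log2 with 2 µg and 0.2 µg of MCC, against 0.11 and 0.10 log2 with 2 µg and 0.2 µg of 102S). The differences ranged from -0.39 ± 0.21 log2 for the dose of MCC (limma Benjamini-Hochberg adjusted p = 0.342) to 0.33 ± 0.21 log2 for 0.2 µg of MCC against 2 µg of 102S (adjusted p = 0.473).

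**Figure D4:**
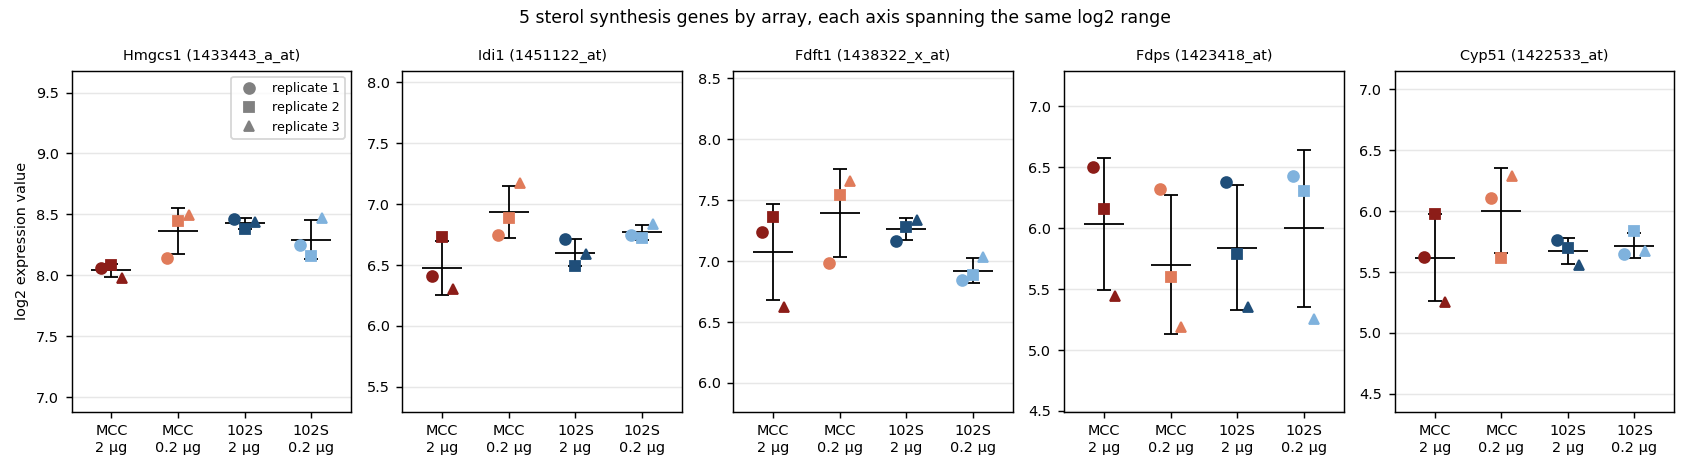
Log2 expression values of Hmgcs1, Idi1, Fdft1, Fdps and Cyp51 in each array, by peptide and dose, with every vertical axis spanning the same log2 range. Symbols mark the replicate number, horizontal lines the mean and bars 1 SD (n = 3 arrays). The groups overlap for Fdps and Cyp51, and the 3 arrays of 2 µg MCC are the lowest for Hmgcs1.

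The brightest probe sets of the 6 measured sterol genes did not vary as one block over the 12 arrays. The highest Pearson r between 2 of them was 0.76 (Sqle and Idi1), followed by 0.73 (Idi1 and Cyp51) and 0.62 (Hmgcs1 and Idi1), whereas Fdps had r between -0.48 (with Hmgcs1) and 0.11 (with Cyp51). Fdps 1423418_at and Hmgcs1 1433443_a_at, which that lowest r compares, had called slopes of -0.81 and 0.17 log2 per log2 on the β-actin control. The dimmer Hmgcs1 probe set 1433446_at, with a slope of -1.11, did not enter these r. The part of RNA quality in them was not tested. Fabp5 had r of -0.15 with Sqle and -0.02 with Hmgcs1, and 0.58 with Fdft1. The median difference of the 6 genes was -0.16 log2 for MCC against 102S at 2 µg and 0.12 log2 at 0.2 µg, where the median of all tested genes was -0.05 and -0.01 log2. For 2 µg against 0.2 µg it was -0.36 log2 with MCC and -0.10 log2 with 102S, where the median of all tested genes was -0.03 and 0.01 log2. The genes whose pattern was most like the mean of the 6 were Zscan12 (r = 0.952), Tfb1m (r = 0.952), Emc10 (r = 0.930), Prpf31 (r = 0.916) and Nip7 (r = 0.908). These correlations too are descriptions over 12 arrays that share peptide, dose and RNA quality.

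Of the further sterol synthesis genes, 11 had a probe set, and all 11 passed the filter. Limma called 0 of 11 at 2 µg for MCC against 102S, with 3 of 11 at an unadjusted p below 0.05 (Ebp 0.47 ± 0.19 log2, Nsdhl 0.31 ± 0.13 log2 and Msmo1 -0.43 ± 0.17 log2). At 0.2 µg it called 1 of 11, Tm7sf2, a sterol C14 reductase, at 6.60 ± 0.26 log2 with MCC and 5.88 ± 0.18 log2 with 102S (SD, n = 3), a difference of 0.72 ± 0.22 log2 (SE; Benjamini-Hochberg adjusted p = 0.0494). That count is near the background, since 9.07% of all genes were called higher in this comparison. Without adjustment, 6 of 11 had a limma p below 0.05 (5 higher and 1 lower), a looser cut than that of the 9.07%. The Tm7sf2 call was lost in 6 of 10 alternatives and on leaving out 9 of the 12 arrays in turn (adjusted p up to 0.172, without replicate 3 of 0.2 µg MCC). The difference in Msmo1, the C4 methyl oxidase, was -0.50 ± 0.17 log2 at this dose, while Pmvk, Nsdhl, Ebp and Dhcr7 differed by 0.40 to 0.54 log2, none of them called. Limma called 0 of 11 for the doses of MCC and of 102S, the interaction and low-dose MCC against high-dose 102S. In that order 2, 3, 1 and 0 of 11 had an unadjusted limma p below 0.05. The share of all genes at that cut was not counted, so the unadjusted counts of this paragraph have no background.

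Among 7 tested genes of sterol sensing and uptake, Mylip was the one called between the peptides, while 6.83% of all genes were called lower at 2 µg and 7.01% at 0.2 µg. Mylip encodes IDOL, a ubiquitin ligase known as a target of the sterol-sensing LXR receptors. It read 8.07, 7.97 and 8.04 log2 with 2 µg of MCC and 8.52, 8.22 and 8.34 log2 with 0.2 µg of MCC, against 9.56, 8.98 and 9.04 log2 with 2 µg of 102S and 10.00, 9.61 and 9.36 log2 with 0.2 µg of 102S. All MCC arrays lay below all 102S arrays. The differences were -1.16 ± 0.18 log2 at 2 µg (SE; limma Benjamini-Hochberg adjusted p = 0.00181) and -1.30 ± 0.18 log2 at 0.2 µg (adjusted p = 0.000432), and both held in 10 of 10 alternatives and 12 of 12 omissions. Srebf2, the gene of SREBP2 itself, differed by -0.01 ± 0.16 log2 at 2 µg and -0.05 ± 0.16 log2 at 0.2 µg, and was not called. Srebf1, Scap, Insig2, Mbtps1 and Stard4 were not called in these comparisons either.

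Of 5 tested genes of sterol efflux and storage, 1 was called between the peptides (Npc2), beside the same shares of all genes. Npc2 encodes the lysosomal protein that hands cholesterol to NPC1. It averaged 11.45 ± 0.10 log2 with 2 µg of MCC and 11.63 ± 0.03 log2 with 0.2 µg of MCC, against 11.91 ± 0.02 log2 with 2 µg of 102S and 12.07 ± 0.02 log2 with 0.2 µg of 102S (SD, n = 3). It was lower with MCC by -0.45 ± 0.06 log2 at 2 µg (SE; limma Benjamini-Hochberg adjusted p = 0.00103) and by -0.44 ± 0.06 log2 at 0.2 µg (adjusted p = 0.000740). Its other probe set gave -0.38 log2 at 2 µg and was not called (adjusted p = 0.0659, limma).

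For 0.2 µg of MCC against 2 µg of 102S, Mylip was lower by -0.84 ± 0.18 log2 (limma Benjamini-Hochberg adjusted p = 0.0315) and Npc2 by -0.28 ± 0.06 log2 (adjusted p = 0.0445). Of all 13576 tested probe sets, 124 were called lower in this comparison. Without replicate 2 of 0.2 µg MCC the Mylip call was lost (adjusted p = 0.153, limma), as on leaving out 7 of the 12 arrays in turn, and the Npc2 call was lost on leaving out 9 of 12 (adjusted p up to 0.183, without replicate 1 of 2 µg 102S). Limma called 0 of the 5 tested isoprenoid-branch genes in either peptide comparison, with 1 of 5 at an unadjusted p below 0.05 in each (Fntb, -0.58 ± 0.19 log2 at 2 µg, and Icmt, -0.43 ± 0.15 log2 at 0.2 µg). All genes were not counted at that unadjusted cut.

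Genes of fatty acid synthesis differed between the peptides in both directions. Of 12 genes of fatty acid synthesis and desaturation, 8 passed the filter and Acaca, Me1, Scd1 and Fads2 did not. At 2 µg, MCC against 102S, 1 of 8 was higher (Scd2) and 3 of 8 were lower (Acss2, Elovl6 and Elovl5), and at 0.2 µg 1 was higher (Scd2) and 2 were lower (Acss2 and Elovl5). Of all genes, 4.44% were called higher and 6.83% lower at 2 µg, and 9.07% higher and 7.01% lower at 0.2 µg. The list's median difference was -0.31 log2 at 2 µg and -0.12 log2 at 0.2 µg, against the medians of all tested genes given above. A difference between this list and the sterol list was not tested.

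Acss2 encodes the enzyme that turns free acetate into acetyl-CoA, the shared precursor of sterols and fatty acids, and it is an SREBP target. It read 6.48, 6.33 and 5.48 log2 with 2 µg of MCC and 7.10, 7.54 and 7.82 log2 with 0.2 µg of MCC, against 7.92, 7.96 and 8.31 log2 with 2 µg of 102S and 8.22, 8.28 and 8.85 log2 with 0.2 µg of 102S. Like Sqle, it was lowest in the 3 arrays of 2 µg MCC. Of the other tested genes of this list, Acly, Elovl6, Fasn and Fads1 were lowest in those arrays too. Scd2 was highest there, and Elovl1 and Elovl5 were neither. At 2 µg it was 3.90-fold lower with MCC than with 102S (-1.96 ± 0.27 log2, limma Benjamini-Hochberg adjusted p = 0.000873), a call kept in 11 of 11 alternatives and 12 of 12 omissions. The difference at 0.2 µg (-0.96 ± 0.27 log2, adjusted p = 0.0349, limma) was lost on leaving out any of 6 of the 12 arrays, with adjusted p up to 0.0947 without replicate 2 of 0.2 µg MCC. The dose difference of MCC (-1.39 ± 0.27 log2, limma adjusted p = 0.0256) was lost without replicate 2 (0.0568) or 3 (0.0786) of 2 µg MCC, or replicate 2 (0.0915) or 3 (0.143) of 0.2 µg MCC.

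Scd2 encodes a stearoyl-CoA desaturase, which makes monounsaturated fatty acids. Its brightest probe set, 1415822_at, read 11.32, 11.24 and 11.33 log2 with 2 µg of MCC and 10.77, 10.38 and 10.27 log2 with 0.2 µg of MCC, against 10.25, 10.32 and 10.26 log2 with 2 µg of 102S and 9.84, 9.28 and 9.32 log2 with 0.2 µg of 102S. It was 2.03-fold higher with MCC at 2 µg (1.02 ± 0.15 log2, limma Benjamini-Hochberg adjusted p = 0.00146) and 1.99-fold higher at 0.2 µg (0.99 ± 0.15 log2, adjusted p = 0.00102). The higher dose gave the higher level of Scd2 with either peptide, by 0.83 ± 0.15 log2 with MCC (adjusted p = 0.0193, limma) and 0.79 ± 0.15 log2 with 102S (adjusted p = 0.0129). A second tested probe set, 1415823_at, was not called in these comparisons and gave 1.31, 0.08, 1.21 and -0.02 log2 in the same order. The dose calls were lost on leaving out any of 5 arrays for MCC (adjusted p up to 0.108, without replicate 3 of 0.2 µg MCC) and any of 3 arrays for 102S (up to 0.0711, without replicate 2 of 2 µg 102S).

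Elovl6, the elongase of palmitate, averaged 5.95 ± 0.41 log2 with 2 µg of MCC and 7.14 ± 0.21 log2 with 2 µg of 102S (SD, n = 3), a difference of -1.19 ± 0.24 log2 (SE; limma Benjamini-Hochberg adjusted p = 0.00797). At 0.2 µg its difference was -0.45 ± 0.24 log2 and was not called. Elovl5, which elongates polyunsaturated fatty acids, was lower with MCC by -0.44 ± 0.12 log2 at 2 µg (adjusted p = 0.0313, limma) and -0.49 ± 0.12 log2 at 0.2 µg (adjusted p = 0.0145), and its other probe set was not called (adjusted p = 0.817 and 0.139). The Elovl5 calls were also lost on leaving out any of 5 arrays at 2 µg (adjusted p up to 0.117, without replicate 3 of 2 µg MCC) and any of 3 at 0.2 µg (up to 0.0739, without replicate 2 of 0.2 µg MCC). Fasn, the fatty acid synthase, was lower at 2 µg than at 0.2 µg of MCC by -0.48 ± 0.11 log2 (adjusted p = 0.0478, limma) and of 102S by -0.45 ± 0.11 log2 (adjusted p = 0.0412), and each call was lost on leaving out any of 10 of the 12 arrays, with adjusted p up to 0.211 (without replicate 3 of 0.2 µg MCC) and 0.198 (without replicate 2 of 2 µg 102S).

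**Figure D5:**
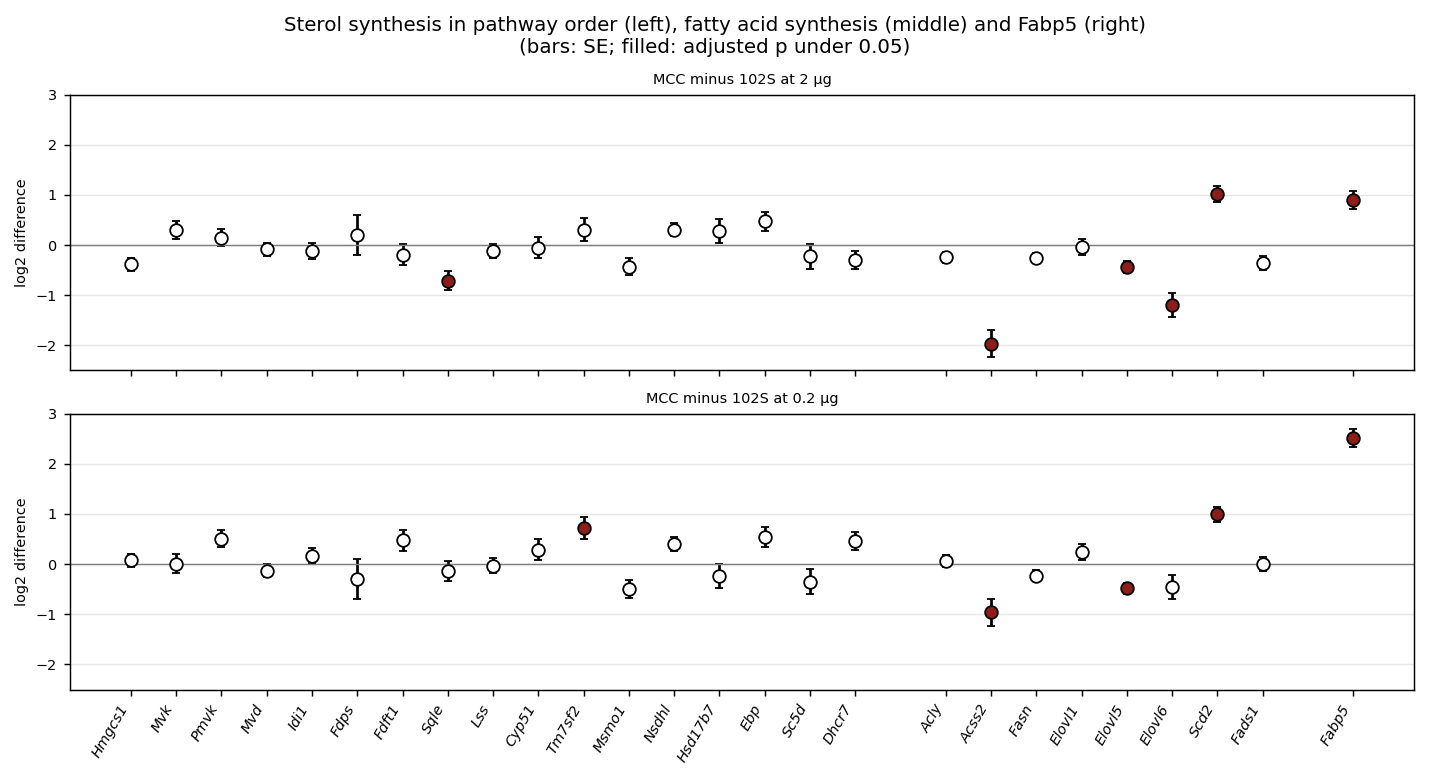
Log2 difference of MCC minus 102S at 2 µg (top) and 0.2 µg (bottom) for the tested sterol synthesis genes in pathway order, the tested fatty acid synthesis genes and Fabp5. Bars are standard errors and filled points have a Benjamini-Hochberg adjusted p under 0.05. Fabp5 and Scd2 are high in both rows, Acss2 and Elovl5 are low in both, and among the sterol genes Sqle is filled at 2 µg and Tm7sf2 at 0.2 µg.

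Of 16 genes of fatty acid uptake and oxidation, 11 passed the filter. Limma called 0 of 11 for MCC against 102S at 2 µg, and 0 of 11 had an unadjusted p below 0.05, a cut at which all genes were not counted. At 0.2 µg it called 1 of 11, Cpt2, the inner-membrane carnitine palmitoyltransferase, at 6.73 ± 0.14 log2 with MCC and 6.15 ± 0.28 log2 with 102S (SD, n = 3; Benjamini-Hochberg adjusted p = 0.0476). With 9.07% of all genes called higher in this comparison, that count is near the background. The Cpt2 call was lost on leaving out any of 10 of the 12 arrays, with adjusted p up to 0.185 without replicate 2 of 0.2 µg MCC. The fatty acid receptor genes Ppara and Pparg and the uptake genes Cd36 and Lpl were below the filter, so that their levels were not compared between groups.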

How the data were processed

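Biotin-labelled RNA from 5CC7 T cells was read on 12 Affymetrix mouse arrays, 3 for each peptide and dose, per the labels' protocols. The authors deposited log2 values, 1 for each probe set on each array. According to the submitters' processing notes GCOS 1.4 was used, and the summarisation and scaling are not given in the sources used here. Deposited values ran from 1.86 to 14.7 log2, and array medians differed by at most 0.0893, so they were used as deposited. The number of arrays, and not a read depth, limits the precision, with a median standard error of 0.184 log2 for a difference between 2 groups.

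Probe sets were named from GEO's platform annotation: 20393 carried 1 symbol, 691 several and 1606 none, and those with several or none were not named. Symbols were compared with RefSeq through Entrez identifiers, where 20364 matched and 0 symbols changed. The 64 control probe sets and all probe sets with a mean below the 40th percentile were left out, which left 13576. Differences between group means were tested with limma 3.58.1 (R 4.3.3) in one fit of the 4 groups, with an intensity trend and 8 residual degrees of freedom, and p-values were adjusted by the Benjamini-Hochberg method over the whole tested set. The same code was tested on simulated data. Figures were drawn with matplotlib 3.10.9 in Python 3.11.15.

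All 8 genes were to be named whatever their result, with up to 4 genes by smallest p from each other list and the 5 genes most like the sterol genes and like Fabp5. Members, lists and motifs were chosen with earlier results of these data known. The mean of the sterol genes was taken over the 6 with a probe set. Alternatives covered scaling, filter, variance trend, replicate block, RNA control, probe set and omitted arrays, and omission of the 2 arrays where the β-actin difference was highest was chosen after seeing the data.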

Additional observations from a re-analysis of the deposited data

Results flagged for a closer look

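Fabp5 is listed here because its peptide effect differed between the doses in a test of that difference itself. MCC minus 102S was 0.90 ± 0.18 log2 at 2 µg and 2.52 ± 0.18 log2 at 0.2 µg (SE), and the interaction was -1.61 log2 (limma Benjamini-Hochberg adjusted p = 0.00878). The second Fabp5 probe set gave -1.21 log2 and did not pass (adjusted p = 0.0901, limma). Single outlying arrays were not tested, since each group has 3.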

How the results depend on the processing

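With 3 arrays per group, the calls for Sqle and that of Fabp5 for the dose of MCC were lost on leaving out some single arrays, as given above, and the median standard error of a difference was 0.184 log2. Probe sets 1433446_at of Hmgcs1 and 1423418_at of Fdps varied with the β-actin control, and the labels do not state how the deposited values were summarised.

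The following values are log2 differences or counts after limma with Benjamini-Hochberg adjustment, in the order MCC against 102S at 2 µg, the same at 0.2 µg, 2 µg against 0.2 µg of MCC, the same of 102S, the interaction, and low-dose MCC against high-dose 102S. The counts of called probe sets were 1393, 1939, 239, 429, 104 and 336. With the replicate block they were 2485, 3494, 1562, 828, 321 and 1146. With the β-actin covariate they were 3335, 3643, 541, 1421, 285 and 1176. With replicates 2 and 3 only, 772 were called for the peptide at 2 µg, 592 for the dose of MCC, 269 for the dose of 102S and 130 in the last comparison. With only the arrays compared, 1070 were called for the peptide at 0.2 µg, 74 for the dose of MCC and 150 in the last comparison, and without the 2 arrays where the β-actin difference was highest, 97 were called for the dose of MCC. Leaving out single arrays gave 700 to 1602, 1051 to 2786, 61 to 1208, 210 to 500, 62 to 142 and 85 to 654.

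Of the 7 genes, 1 was called at 2 µg between the peptides with no filter, with the 60th percentile filter and with replicates 2 and 3 only. For the dose of MCC, 1 was called with the 60th percentile filter, 0 without the 2 arrays where the β-actin difference was highest and 0 with only the arrays compared. For the dose of 102S, 1 was called with the β-actin covariate. Leaving out single arrays called 1 to 3 at 2 µg, 1 to 2 at 0.2 µg and 0 to 2 for the dose of MCC. Sqle was not tested under the 60th percentile filter. The labels do not say that a replicate number marks shared animals or days, and deviations of same-numbered arrays correlated at 0.56 to 0.82 for number 1, -0.29 to 0.39 for number 2 and 0.22 to 0.66 for number 3, with 4, 2 and 4 of 4 arrays correlating best with their own number. With that block as a replicate term, Hmgcs1 was called at 2 µg (adjusted p = 0.0417, limma) so that 3 of the 7 genes were called there, and the counts in the other comparisons were those of the fit without it.

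Apart from the dose difference of Scd2, the differences that changed sign were of genes that were not called. With probe set 1433446_at, Hmgcs1 was 0.0574 at 2 µg, -0.28 at 0.2 µg, 0.52 for the dose of MCC and 0.34 for the interaction, and with 1433445_x_at it was -0.0357 at 0.2 µg. In the last comparison Hmgcs1 was 0.0065 with quantile normalization and 0.0668 with replicates 2 and 3 only. With probe set 1448130_at, Fdft1 was 0.0059 at 2 µg, 0.13 for the dose of MCC and -0.12 in the last comparison. With 1438919_x_at it was 0.12 at 2 µg and -0.20 for the dose of 102S, and with 1438918_at it was -0.0064 there. With the β-actin covariate, Fdps was -0.30 at 2 µg, -0.46 for the dose of MCC, -0.23 for the interaction and 0.16 in the last comparison, where it was 0.12 without the 2 arrays where the β-actin difference was highest. With probe set 1450646_at, Cyp51 was 0.37 for the dose of 102S and -0.0222 in the last comparison, and Scd2 with probe set 1415823_at was -0.0194 for the dose of 102S. On leaving out single arrays, values at 2 µg ran from -0.23 to 0.13 for Cyp51, -0.33 to 0.0363 for Fdft1 and -0.0491 to 0.49 for Fdps. For the dose of 102S they ran from -0.0899 to 0.0141 for Cyp51 and -0.53 to 0.0859 for Fdps, and in the last comparison from -0.45 to 0.13 for Fdps and -0.13 to 0.0478 for Hmgcs1. The cause was not tested. Median centring moved the share of higher calls for the peptide at 0.2 µg to 44.6%, against 54.9% as deposited, and in the last comparison to 51.2%, against 63.1%.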
